A study of Mus musculus with 2 samples.

Results

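The 55 genes described here encode Polycomb proteins, histone methyltransferases, histone acetyltransferases and their readers, nucleosome remodellers, and the enzymes that add or remove DNA methylation. They were picked by gene symbol from the deposited expression table, with the subunits of the NuRD deacetylase left out, and all 55 were found among its 34745 genes. The mRNA came from mouse monocytic myeloid-derived suppressor cells (M-MDSCs), immature monocyte-lineage cells that restrain T cell responses. Bone marrow cells from animals aged 6 to 8 weeks were cultured for 7 days with 50 ng/ml granulocyte-macrophage colony-stimulating factor (GM-CSF), either alone (CHBP- M-MDSC, strain C57BL/6 in the labels) or together with cyclic helix B peptide (CHBP+ M-MDSC, strain C57BL/7 in the labels), and CD11b+Ly6G-Ly6C high cells were then sorted. CHBP is a cyclic peptide derived from erythropoietin, its dose is not in the labels, and GM-CSF was shared by both groups. Each condition was represented by 1 library, so the strain label, the culture, the sort and the treatment cannot be told apart, and no value below has a replicate check.

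Polycomb proteins keep developmental genes silent. The PRC2 complex places a methyl mark on histone H3, and the PRC1 complex binds marked chromatin, ubiquitinates histone H2A and compacts it through the Polyhomeotic (Phc) subunits, which assemble into chains. Trithorax-group methyltransferases of the MLL family, encoded by the Kmt2 genes, work in the opposite direction at promoters and enhancers, and the paired acetyltransferases encoded by Ep300 and Crebbp acetylate histones at active enhancers. SWI/SNF and CHD remodellers move nucleosomes with the energy of ATP, Dnmt enzymes methylate cytosine, and Tet enzymes oxidise the methyl group. In myeloid cells Tet2, Asxl1, Dnmt3a and Ezh2 are best known as genes that are recurrently mutated in myeloid leukaemia.

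Phc3 stood far from every other member, with a higher read count in the CHBP+ library, while its paralogues Phc1 and Phc2 had fewer reads there. Phc3 (ENSMUSG00000037652, chr3:30899371-30969415) encodes a Polyhomeotic subunit of canonical PRC1. The CHBP- library held 95 Phc3 reads and the CHBP+ library 1040, or 5.76 and 63.9 CPM, which are reads scaled to the library total. After scaling to the library totals of 16484504 and 16280466 reads, the ratio was 11.1 (95% interval 8.98 to 13.8), where the interval is an exact Clopper-Pearson interval that covers counting error only. Phc1 had 151 and 127 reads, a ratio of 0.852 (0.667 to 1.09), and Phc2 had 1082 and 785, a ratio of 0.735 (0.669 to 0.806), the lowest of the 55. The interval of Phc1 included 1 and that of Phc2 lay below it. The ratio of Phc3 was 13.0 times that of Phc1 (9.37 to 18.1, conditional odds ratio) and 15.1 times that of Phc2 (12.0 to 19.2). On the FPKM scale, in which reads are scaled to gene length as well, Phc3 had the lowest level of the trio in the CHBP- library, 0.273 against 0.905 for Phc1 and 6.47 for Phc2. In the CHBP+ library it was second, at 3.03 FPKM against 0.771 for Phc1 and 4.75 for Phc2.

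The stretches before the start sites of the Polyhomeotic genes and of Ep300 are shown because Phc3 moved away from its paralogues and because Ep300 is the other gene taken singly here. They are RefSeq sequences on build GRCm38.p6, printed 5′ to 3′ on the gene's own strand as the 250 bases before the start. Capitals mark a match, on either strand, to 1 of 6 motifs that were chosen after expression values had been seen: the ETS site CCGGAAGT, the NRF1 site GCGCATGC, the CRE TGACGTCA, the CCAAT box CCAAT, the STAT site TTCNNNGAA and the YY1 site AAGATGGC.
Phc3, chr3:30969416-30969665, minus strand: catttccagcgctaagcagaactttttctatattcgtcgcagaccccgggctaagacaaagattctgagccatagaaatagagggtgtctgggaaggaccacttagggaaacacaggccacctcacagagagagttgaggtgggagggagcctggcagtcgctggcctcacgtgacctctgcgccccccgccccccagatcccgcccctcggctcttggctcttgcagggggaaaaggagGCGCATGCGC
Phc1, chr6:122340228-122340477, minus strand: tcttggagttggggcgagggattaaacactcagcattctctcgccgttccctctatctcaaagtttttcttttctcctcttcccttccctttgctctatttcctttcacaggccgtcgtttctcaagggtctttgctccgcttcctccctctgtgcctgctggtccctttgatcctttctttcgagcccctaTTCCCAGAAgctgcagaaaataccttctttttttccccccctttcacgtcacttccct
Phc2, chr4:128654452-128654701, plus strand: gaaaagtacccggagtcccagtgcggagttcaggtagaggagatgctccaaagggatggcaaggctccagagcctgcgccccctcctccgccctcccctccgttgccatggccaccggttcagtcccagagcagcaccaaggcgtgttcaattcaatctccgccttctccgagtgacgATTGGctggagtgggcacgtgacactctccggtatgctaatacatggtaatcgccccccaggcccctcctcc
Ep300, chr15:81585964-81586213, plus strand: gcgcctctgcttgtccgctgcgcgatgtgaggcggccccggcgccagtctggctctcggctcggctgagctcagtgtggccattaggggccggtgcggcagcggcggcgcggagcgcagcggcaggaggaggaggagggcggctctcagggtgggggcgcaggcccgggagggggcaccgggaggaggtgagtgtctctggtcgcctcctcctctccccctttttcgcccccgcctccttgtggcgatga
Phc3 carried a pair of overlapping NRF1 matches that began 10 and 8 bases before the start, on opposite strands, and a YY1 match 25 bases after it. Phc1 carried a STAT match 58 bases before the start, Phc2 a CCAAT match 72 bases before it, and Ep300 no match to the 6 motifs. The Ep300 window lies inside the span that the expression table gives for the gene, which begins upstream of the RefSeq start. Among 8931 genes tested with a window of 250 bases before and 50 after the start, 5.67% held an NRF1 match, 5.01% a YY1 match, 7.11% a STAT match and 39.1% a CCAAT match. CpG sites in that window numbered 15 for Phc3, 9 for Phc1, 19 for Phc2 and 30 for Ep300, beside a median of 30 over the 44 members with a window and 21 over the 8931 genes. Median GC content was 67.2% for those members and 60.7% for the genes tested. Of the members at least 1.5-fold higher in the CHBP+ library, 10 had a window and 0 of them held a CCAAT match, while 13 of the other 34 members did. Among those 10, the windows of Kat6b and Tet1 also lie inside the listed span, away from its 5′ end. The same holds for some of the 34, such as Cbx7, Brd3, Smarcc1 and Tet3. The difference between the sets was not tested. The motif matches describe the letters in the window and were not related to any measurement of binding.

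Ep300 (ENSMUSG00000055024, chr15:81585351-81652077), an acetyltransferase that serves many transcription factors as a coactivator, had 1599 reads in the CHBP- library and 2913 in the CHBP+ library, or 97.0 and 178.9 CPM, a ratio of 1.84 (1.74 to 1.96). Its paralogue Crebbp had 528 and 778 reads, a ratio of 1.49 (1.33 to 1.67), just under the 1.5-fold threshold. The ratio of Ep300 was 1.24 times that of Crebbp (1.09 to 1.41). On the FPKM scale Ep300 was the more abundant of the pair in both libraries, at 5.39 against 1.79 and at 9.95 against 2.67, so the level ratio within the pair went from 3.01 to 3.72. Ep300 ranked 10 of 55 by its ratio, against rank 1 for Phc3. Set against the summed reads of the other 54 members, the ratio of Phc3 was 8.29 times theirs (6.71 to 10.3) and that of Ep300 1.38 times (1.29 to 1.47). Phc3 took 0.152% of all member reads in the CHBP- library and 1.24% in the CHBP+ library, and Ep300 took 2.55% and 3.49%.

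As a group the 55 genes had more reads in the CHBP+ library, 83552 against 62599, or 0.513% of that library against 0.380%. The ratio of the summed reads was 1.35 (1.34 to 1.37), and it was 1.34 (1.32 to 1.35) without Phc3. All 55 passed the filter of 50 reads over both libraries, each had between 39 and 5065 reads per library, and 16 were at least 1.5-fold higher in the CHBP+ library while 0 were at least 1.5-fold lower. Over all 11889 genes tested, 7.18% were at least 1.5-fold higher and 5.06% at least 1.5-fold lower. The median log2 ratio was 0.36 for the members and -0.02 for all genes tested. In total 44 members had a ratio above 1 and 11 below 1, and the counting interval lay wholly above 1 for 39 and wholly below 1 for 6. Over all 11889 genes tested, 5660 had a ratio above 1 and 6229 below 1. Their counting interval lay wholly above 1 for 3273 and wholly below 1 for 3440. At a 2-fold threshold 7 members were higher, where the share of all genes tested was 2.08%. With 1 library per condition no test between the conditions was possible, and fewer cells of a type and less RNA per cell cannot be told apart in bulk libraries.

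**Figure D1:**
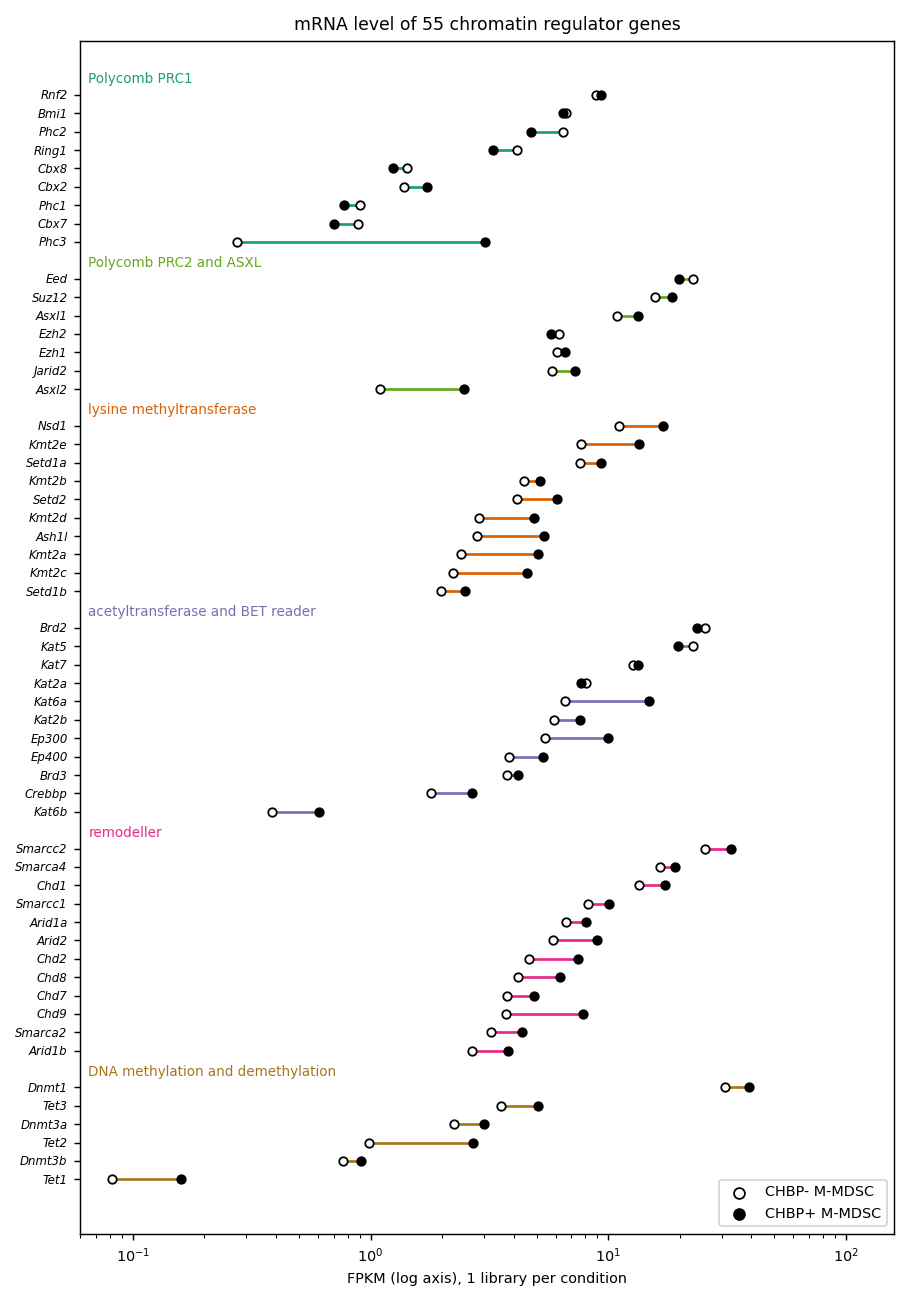
FPKM on a log axis for each of the 55 genes in the CHBP- library (open points) and the CHBP+ library (filled points), 1 library per condition and therefore without error bars, grouped by family and ordered by the CHBP- level. Phc3 spans 0.273 to 3.03 FPKM, the longest distance on the plot, and Dnmt1 has the highest level in both libraries.

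On the FPKM scale the members ran from 0.0818 to 31.1 with a median of 4.41 in the CHBP- library, and from 0.159 to 39.1 with a median of 6.10 in the CHBP+ library, as the plot of levels by family shows. Dnmt1, the maintenance DNA methyltransferase, had the highest level in both libraries and Tet1 the lowest. The number of members under 1 FPKM was 7 in the CHBP- library and 5 in the CHBP+ library.

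Outside Phc3, the PRC1 genes had ratios near or below 1. Of the 9 PRC1 members, 1 was at least 1.5-fold higher, 6 had a ratio below 1, and the median ratio was 0.877. Over all 11889 genes tested, 7.18% were at least 1.5-fold higher and 6229 had a ratio below 1. Rnf2, the main E3 ubiquitin ligase of the complex, had 1080 and 1126 reads (1.06, 0.970 to 1.15), and Bmi1, its partner in canonical PRC1, had 703 and 677 (0.975, 0.876 to 1.09). Both intervals included 1. Ring1, the paralogue of Rnf2, had 338 and 265 reads, a ratio of 0.794 (0.673 to 0.935). Among the chromobox readers that bind the PRC2 mark, Cbx7 had 207 and 162 reads (0.792, 0.641 to 0.978), Cbx8 had 112 and 97 (0.877) and Cbx2 had 102 and 126 (1.25), and the intervals of Cbx8 and Cbx2 included 1. The summed PRC1 reads went from 3870 to 4405, a ratio of 1.15 (1.10 to 1.20), and the gain of Phc3 alone was larger than that of the whole family.

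The core PRC2 genes had ratios between 0.871 and 1.24. Ezh2, the catalytic subunit of dividing cells, had 926 and 845 reads (0.924, 0.841 to 1.02), and Ezh1, its paralogue, had 1120 and 1190 (1.08, 0.991 to 1.17). Suz12, a scaffold subunit, had 2099 and 2439 reads (1.18), Eed, which reads the PRC2 mark, had 945 and 813 (0.871), and Jarid2, an accessory subunit, had 1596 and 1959 (1.24). The intervals of Ezh1 and Ezh2 included 1, that of Eed lay below 1, and those of Suz12 and Jarid2 lay above it. Asxl2, a partner of the BAP1 deubiquitinase, was the exception, with 555 and 1247 reads and a ratio of 2.28 (2.06 to 2.52). Its paralogue Asxl1 had 1421 and 1721 reads (1.23), and the ratio of Asxl2 was 1.85 times that of Asxl1 (1.64 to 2.10). Of these 7 genes, 1 was at least 1.5-fold higher, where the share over all genes tested was 7.18%, and the median ratio was 1.18.

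Lysine methyltransferases had the highest median ratio of the 6 families, 1.61, with 6 of 10 at least 1.5-fold higher and all 10 intervals above 1. Over the 11889 genes tested, 7.18% were at least 1.5-fold higher and 3273 had an interval above 1. All 10 methyltransferase genes also belong to the longest transcripts, of which 32.5% were at least 1.5-fold higher. Relative to the length and GC trend 0 of 10 were at least 1.5-fold above it and their median distance was 0.03. With a trend on the gene length implied by the deposited FPKM, added after the data were seen, all 10 lay above it. Their distances from that trend ran from 0.13 for Setd2 to 0.71 for Kmt2a, which was 1.64-fold above it. Kmt2a, the founding MLL gene, went from 799 to 1673 reads (2.12, 1.95 to 2.31). Kmt2c and Kmt2d, which methylate histone H3 at enhancers, went from 944 to 1901 (2.04, 1.88 to 2.21) and from 1119 to 1882 (1.70, 1.58 to 1.83). The same reads scaled to gene length put these 3 genes between 2.23 and 2.86 FPKM in the CHBP- library and between 4.54 and 5.08 in the CHBP+ library. Kmt2e, a divergent relative of the MLL genes, went from 1606 to 2792 reads (1.76). Ash1l, a Trithorax-group enzyme, went from 817 to 1540 (1.91, or 1.34 with all reads of an overlapping gene added). Nsd1, a methyltransferase mutated in overgrowth syndromes, went from 2346 to 3531 (1.52, 1.45 to 1.61). Setd2, which marks transcribed gene bodies, lay just under the threshold with 1369 and 2001 reads (1.48). Kmt2b, with 908 and 1045 reads, had the lowest ratio of the family, 1.17 (1.07 to 1.27), and the Setd1 pair lay close to it, at 1.23 for Setd1a and 1.25 for Setd1b.

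Among acetyltransferases and BET readers, 3 of 11 were at least 1.5-fold higher, where the share over all genes tested was 7.18%. Those 3 belong to the longest transcripts, of which 32.5% were at least 1.5-fold higher. Relative to the length and GC trend, 1 of the 11 was at least 1.5-fold above it. Kat6a, whose product MOZ is needed in blood stem cells, had the highest ratio of the family, with 1015 and 2279 reads (2.27, 2.11 to 2.45), and its paralogue Kat6b had 208 and 324 (1.58, 1.32 to 1.89). Ep300 was the other. Kat5, the catalytic subunit of the TIP60 complex, had the lowest ratio, with 750 and 641 reads (0.865, 0.778 to 0.963), while Ep400, which shares that complex, had 1239 and 1707 (1.40). Brd2, a BET bromodomain reader and the member with the most reads, had 5065 and 4649 (0.929, 0.893 to 0.967), and Brd3 had 776 and 851 (1.11). Kat2a, Kat2b and Kat7, which belong to the SAGA, PCAF and HBO1 complexes, had ratios of 0.954, 1.29 and 1.05.

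All 12 remodeller genes had a ratio above 1, each with an interval above 1, and 3 were at least 1.5-fold higher. Over all 11889 genes tested, 5660 had a ratio above 1, 3273 an interval above 1, and 7.18% were at least 1.5-fold higher. Those 3 remodeller genes belong to the longest transcripts, of which 32.5% were at least 1.5-fold higher. Relative to the length and GC trend, 6 of the 12 were above it and 0 were at least 1.5-fold above it. Their median distance from it was 0.03. With the trend on the gene length implied by the deposited FPKM, Chd7 lay at -0.01 and the others lay above it. The farthest was Chd9, 1.75-fold above that trend. Chd9 had the highest ratio, with 724 and 1504 reads (2.10, 1.92 to 2.30). Next was Chd2 with 1771 and 2815 (1.61, or 1.31 with all reads of an overlapping gene added). Arid2, a subunit of the PBAF complex, had 1252 and 1888 (1.53). Chd8 lay at the threshold, with 1600 and 2367 reads and a ratio of 1.498 (1.40 to 1.60). Smarca4, the main ATPase of the SWI/SNF complexes, had the lowest ratio of the family, with 2474 and 2813 reads (1.15, 1.09 to 1.22), and its paralogue Smarca2 had 651 and 863 (1.34). The core scaffolds Smarcc1 and Smarcc2 had ratios of 1.23 and 1.29, and the DNA-binding subunits Arid1a and Arid1b had 1.21 and 1.41.

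The enzymes of DNA methylation and demethylation all had ratios above 1, and 2 of 6 were at least 1.5-fold higher. Over all 11889 genes tested, 5660 had a ratio above 1 and 7.18% were at least 1.5-fold higher. Those 2 enzymes belong to the longest transcripts, of which 32.5% were at least 1.5-fold higher. Relative to the length and GC trend, 1 of the 6 was at least 1.5-fold above it. Tet2, the main Tet enzyme of myeloid cells, went from 488 to 1318 reads, a ratio of 2.73 (2.46 to 3.04), the second highest of the 55. Tet1, with 39 and 75 reads, had the fewest reads of any member and a wide interval around its ratio of 1.95 (1.31 to 2.95). Tet3 had 1117 and 1572 reads (1.42), and the ratio of Tet2 was 1.92 times that of Tet3 (1.68 to 2.19). On the FPKM scale Tet3 stayed above Tet2, at 3.55 against 0.988 in the CHBP- library and 5.06 against 2.70 in the CHBP+ library. Dnmt1 had 3266 and 4064 reads (1.26), the de novo enzyme Dnmt3a 1080 and 1429 (1.34) and Dnmt3b 113 and 134 (1.20), with an interval that included 1 for Dnmt3b alone of the trio.

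Transcript length sorted these ratios. The genes tested were cut into 10 bins of equal size by the longest coding transcript that the GENCODE annotation gives for each, and 31 of the 55 members fell in the bin of longest transcripts, from 6251 to 26901 bases, and all 16 members at least 1.5-fold higher were among them. In that bin 32.5% of all genes tested were at least 1.5-fold higher and the median log2 ratio was 0.47, beside 16 of 31 members and a member median of 0.61. At the 2-fold threshold it was 7 of 31 members and 7.58% of the bin. In the 9 shorter bins 0 of 24 members were at least 1.5-fold higher, where 3.99% of genes were, and the member median was 0.08. Ratio and transcript length were related with a Spearman's rho of 0.864 over the 55 members, 0.863 without Phc3 and 0.650 over the 11214 genes tested that had a transcript. These coefficients are descriptions, since all points come from the same pair of libraries.

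**Figure D2:**
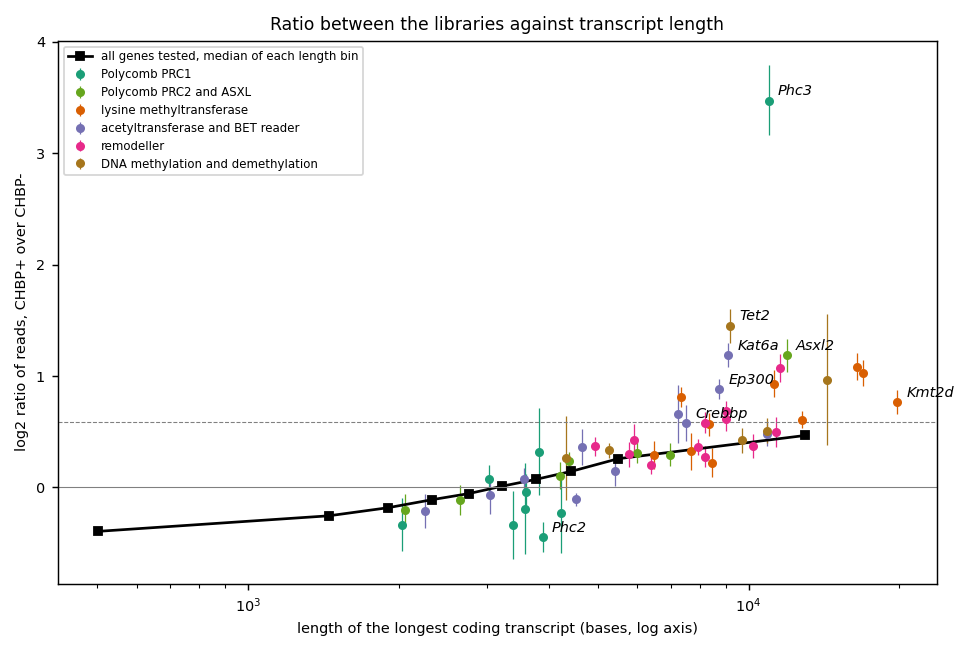
Log2 ratio of library-scaled reads, CHBP+ over CHBP-, against transcript length in bases on a log axis for the 55 members (coloured by family, bars are 95% counting intervals), with black squares for the median of all genes tested in each of the 10 length bins, placed at the geometric middle of the bin. Dashes mark 1.5-fold. The bins climb from -0.39 to 0.47, most members lie along them, and Phc3 lies far above at 3.47.

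A polynomial in transcript length and GC content was fitted to the ratios of all 11214 genes (R squared 0.332), and the distance of each member from it was taken. The median distance was 0.01 on the log2 scale, with 29 of 55 members above the trend, beside 5390 of the 11214 genes. At least 1.5-fold above it were 3 members, where the share of genes tested was 3.82%, and at least 1.5-fold below it were 0, where the share was 2.66%. Phc3 was 6.91-fold above the trend (5.60 to 8.62, counting error only), with 10 of 11214 genes at least as far above. Tet2 was 1.85-fold and Kat6a 1.55-fold above it. Ep300 was 1.29-fold above it (1.21 to 1.37), rank 6 of the 55, with 865 genes at least as far above. The trend alone gave 1.43-fold for a transcript with the length and GC content of Ep300 and 1.60-fold for that of Phc3.

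**Figure D3:**
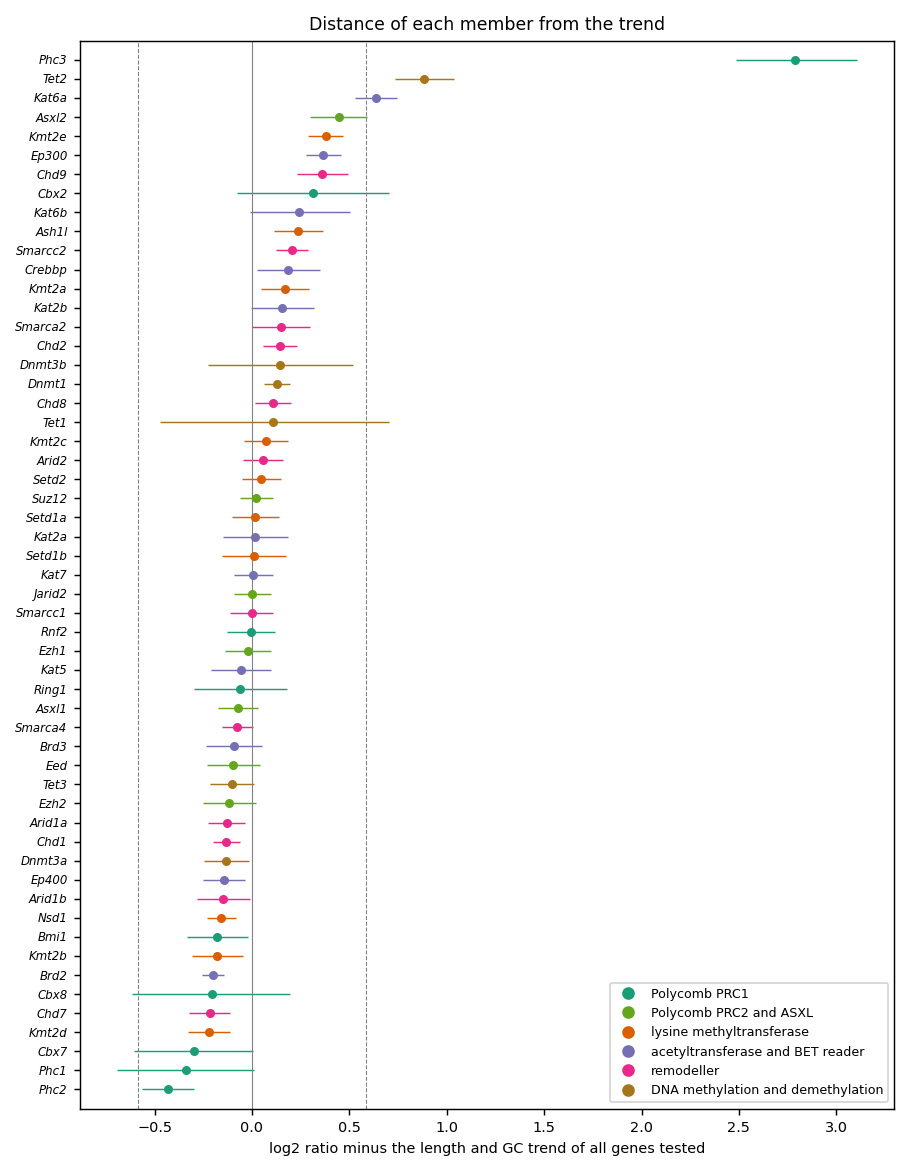
Distance of the log2 ratio of each of the 55 members from the length and GC trend of all genes tested, ordered by distance, with bars for the 95% counting interval and dashes at 1.5-fold. Phc3 lies at 2.79, Tet2 and Kat6a are the other 2 past the upper dashes, and Phc2 is lowest at -0.43.

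The 16 members at least 1.5-fold higher lay between -0.22 and 2.79 from the trend on the log2 scale, 14 of them above it. Kmt2d and Nsd1 were the exceptions, at -0.22 and -0.16, with transcripts of 19805 and 12784 bases. With the trend on the gene length implied by the deposited FPKM, these genes lay 0.45 and 0.34 above it. Asxl2 lay 0.45 above the trend, Kmt2e 0.38 and Chd9 0.36, while Kmt2a and Kmt2c, with transcripts of 16470 and 16901 bases, lay 0.17 and 0.07 above it. By family the median distance was -0.18 for PRC1, -0.02 for PRC2 and ASXL, 0.03 for methyltransferases, 0.02 for acetyltransferases and readers, 0.03 for remodellers and 0.12 for DNA methylation genes. Phc2 and Phc1 were the lowest of the 55, at -0.43 and -0.34. The transcript taken for Crebbp has no 3′ untranslated region in that annotation, so its length is understated and its distance of 0.19 may be too high.

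Paralogues often parted. In each of the 27 pairs in 19 groups the gene with the higher ratio was put first, so every odds ratio is above 1 by construction. The conditional odds ratio of the pair had an interval wholly above 1 for 19 and including 1 for 8, and the gene with the higher ratio had the longer transcript in 21. The intervals cover counting error only, pairs within a trio share genes, and no share for other gene pairs was computed. Apart from the Phc3 pairs, the widest gaps were Tet2 over Tet3 (1.92), Asxl2 over Asxl1, Kmt2a over Kmt2b (1.82, 1.61 to 2.06) and Chd9 over Chd7 (1.62, 1.45 to 1.82). The smallest were Setd1b over Setd1a (1.02, 0.886 to 1.18) and Smarcc2 over Smarcc1 (1.05, 0.955 to 1.16). On the FPKM scale the order of levels within the group was not the same in both libraries for 4 of the 19 groups. These were the Phc genes, Ezh2 above Ezh1 in the CHBP- library (6.20 and 6.09) and below it in the CHBP+ library (5.73 and 6.55), Cbx8 above Cbx2 and then below it, and Chd9, which went from the lowest of the Chd7, Chd8 and Chd9 trio at 3.72 to the highest at 7.84.

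**Figure D4:**
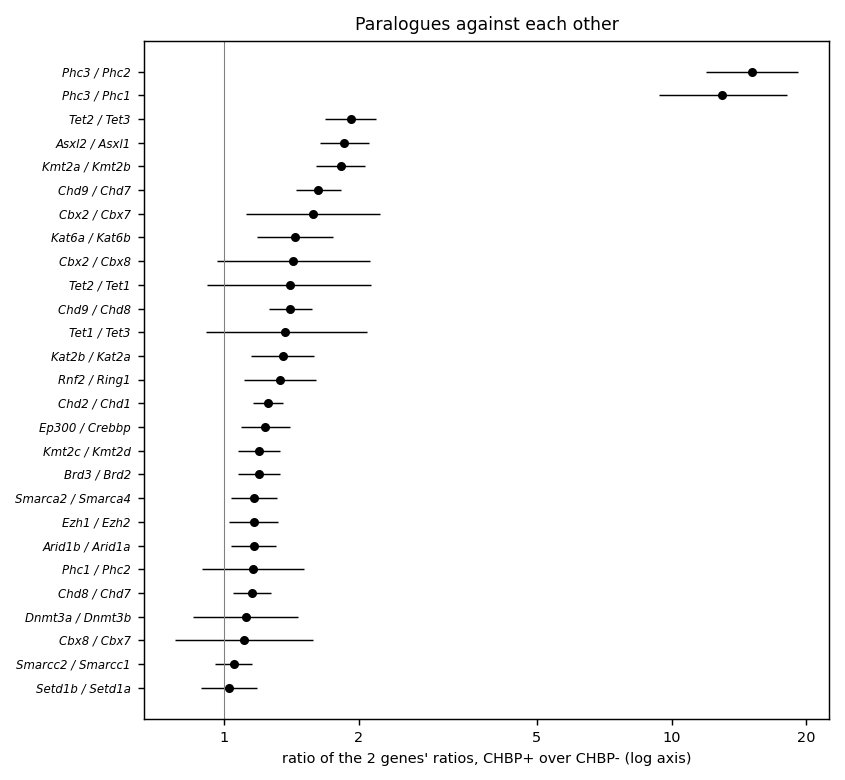
Conditional odds ratio of 27 paralogue pairs on a log axis, the ratio of the first gene over that of the second between the CHBP+ and CHBP- libraries, with bars for the exact 95% interval (counting error only). The gene with the higher ratio is put first, so all points lie above 1 by construction. The Phc3 pairs lie at 13.0 and 15.1 and all others between 1.02 and 1.92.

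Reads of a member can come from a gene that overlaps it, since the counting is not stated to use strand. Of the 55 members, 12 were overlapped by a gene with at least 10 reads, and 12 of the 43 others were at least 1.5-fold higher. Among genes tested without such an overlap, 639 of 9110 were. The members at least 1.5-fold higher belong to the longest transcripts, of which 32.5% of genes tested were. Phc3 was overlapped only by 9530022L04Rik, with 0 and 1 reads, and Ep300 by no listed gene. Chd2 was overlapped over 2628 bases by 1810026B05Rik, with 492 and 108 reads, and the ratio of their summed reads was 1.31 against 1.61 for Chd2 alone. Ash1l shared 560 bases with Dap3, which had 900 and 729 reads, and their summed ratio was 1.34. Both sums were under 1.5-fold, but they take all reads of the partner, not only those in the shared bases. They therefore cannot show how many reads of a member came from its partner. With their partners added, Asxl2 was at 1.86 and Kmt2e at 1.52. Setd1a was overlapped over 14515 bases by a gene listed under a clone name with 205 and 0 reads, and its summed ratio was 1.02 against 1.23 alone. The listed span of Chd1 covered Oaz1-ps, with 1562 and 1064 reads, and their summed ratio was 1.08 against 1.29.

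Of 100 further genes of the same machineries, 94 passed the read filter, 13 were at least 1.5-fold higher and 2 at least 1.5-fold lower, with a median log2 ratio of 0.09, beside 7.18% higher and 5.06% lower over all genes tested. These 2 were Ss18 and Brpf3. In the bin of longest transcripts 10 of 22 were at least 1.5-fold higher, where 32.5% of all genes were, and elsewhere 3 of 72, where 3.99% were. The genes at least 1.5-fold higher were the remodeller genes Bptf (1276 and 2395 reads, 1.90), Srcap, Atrx, Chd6, Pbrm1 and Baz2b, the coactivator and acetyltransferase genes Trrap, Ncoa1 and Taf1, the methyltransferase genes Suv39h1, Prdm2 and the coactivator gene Ncoa6, and Uhrf2, an E3 ligase that reads methylated DNA. Srcap was overlapped by Gm42715, with 618 and 800 reads, and their summed ratio was 1.504 against 1.70. Relative to the trend the median of the list was -0.01, with 1 gene at least 1.5-fold above it and 3 at least 1.5-fold below. The shares over genes tested were 3.82% above and 2.66% below.

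Markers of monocytes and of other myeloid cells were both present in the 2 libraries. Lyz2 was at 9756 and 7830 FPKM, Csf1r at 112.9 and 125.7, Itgam, which encodes CD11b, at 157.0 and 232.4 and Ly6c2 at 56.9 and 34.0, while Ccr2 was at 3.29 and 3.84, Ly6c1 at 3.70 and 2.91 and Nos2 at 0.203 and 0.381. From the same list Arg1 was at 399.6 and 401.3, Cd14 at 206.4 and 178.5, Spi1 at 85.7 and 72.0 and Cebpb at 61.2 and 40.9. Ly6g, which the sort gated out, was at 2.19 and 2.12, but the neutrophil-list genes Mmp8 (1290 and 1546), S100a9 (1269 and 937.1) and S100a8 (576.3 and 390.6) were high, and Itgax (106.8 and 141.9) and Adgre1 (157.8 and 183.7), from the dendritic cell and macrophage lists, exceeded Ly6c2. The other neutrophil-list genes were lower, with Elane at 75.2 and 46.3, Csf3r at 53.6 and 50.1, Mpo at 19.3 and 14.8, Camp at 1.76 and 1.38 and Ltf at 1.54 and 1.63. In the dendritic cell list H2-Aa was at 142.1 and 103.2, Ccr7 at 17.6 and 13.1, Flt3 at 2.37 and 2.18, Zbtb46 at 0.280 and 0.537 and Cd209a at 0.531 and 0.538. In the macrophage list C1qa was at 10.3 and 7.97, Mrc1 at 8.17 and 11.9 and Mertk at 1.45 and 1.70. Summed FPKM of 5 T cell markers was 4.05 and 3.51, of 4 B cell markers 27.5 and 19.0, of 3 NK cell markers 5.84 and 3.50 with Ncr1 at 0 in both, and of 5 erythroid markers 1132 and 489.8. The sums were 10843 and 8922 for 11 M-MDSC and monocyte markers and 3289 and 2990 for 9 neutrophil markers. They were 269.7 and 261.4 for 6 dendritic cell markers, 177.7 and 205.2 for 4 macrophage markers and 202.7 and 178.0 for 5 mast cell and basophil markers. Of 11 proliferation genes, set beside Ezh2 and Dnmt1, 1 was at least 1.5-fold higher, Mki67 (4612 and 6869 reads), and the median ratio was 0.894. Over all genes tested 7.18% were at least 1.5-fold higher. Mki67 has a transcript of 10075 bases and lay -0.02 from the length and GC trend. The part of these shifts in the members' ratios was not tested.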

How the data were processed

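RNA was sequenced as single-end reads of 75 bases from 1 library per condition. According to the labels, adapters, low-quality ends, short reads and ribosomal RNA were removed. The authors deposited a count and an FPKM (reads scaled to gene length and library total) for each gene and library. The methods name TopHat2, mm9 and HT-seq, whereas the submitters' processing notes name HISAT2 2.0.4, Cufflinks 2.1.1, Cuffdiff and mm10 (GRCm38); all 55 members lay on their RefSeq genes of GRCm38. Strand use and multi-mapping are not given in the sources used here.

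From the deposited counts, the ratio of reads scaled to library totals was computed for 11889 genes with at least 50 reads in both libraries together. No pseudocount was added, but a count of 0 was set at 3 reads. Called genes differed at least 1.5-fold. Exact intervals (95%, SciPy 1.17.1) cover counting error only; 3 reads, the most that a count of 0 allows, were 0.182 and 0.184 CPM. Transcript length and GC content came from GENCODE M1 (94.3% of genes tested); the trend was cubic in log10 length and quadratic in GC content with 1 cross term. TMM factors were from edgeR 4.0.16, without a test. Scripts were tested on simulated data. Phc3, Ep300, their paralogues, members past the threshold and the extremes of each family were given in full. Members and lists were chosen with earlier results of these data known, and paralogue groups, motifs and a trend on deposited gene length after expression values were seen. Promoter windows matched 44 of 55 members by symbol; Chd2, Cbx2, Chd1, Chd7, Kat6a, Setd1b, Kmt2e, Kmt2b, Nsd1, Ash1l and Arid2 had no entry.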

Additional observations from a re-analysis of the deposited data

How the results depend on the processing

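With 1 library per condition these values measure the difference between 2 libraries, and Tet1, with 39 and 75 reads, had the widest counting interval, relative to its ratio, of the 55 members. The count of 16 members at least 1.5-fold higher was 3 with the length and GC trend removed, 7 at a 2-fold threshold and 5 with a trend on the gene length implied by the deposited FPKM, a setting added after the data were seen. It was 12 with FPKM plus 1 (50 members), 14 with FPKM plus 0.1, 16 with at least 1 read in each library, 14 with at least 1000 reads (47 members), 12 without overlapped members (43 left), 12 with the interval wholly past 1.5-fold, 19 with the median of all genes set to 0 and 18 with TMM factors. The count at least 1.5-fold lower was 0 under each of these. Setting the median of all genes to 0 moved the members' median log2 ratio from 0.36 to 0.39, TMM to 0.38, FPKM plus 1 to 0.31, the trend to 0.0078 and the trend on deposited gene length to 0.16. Removing the trend changed the sign of 17 members, and among those at least 1.5-fold higher it turned Kmt2d to -0.22 and Nsd1 to -0.16; the trend on deposited gene length changed 9 signs and the other settings 0.

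Phc3 exceeded the median log2 ratio of the other members by 3.12, by 1.36 with FPKM plus 1, by 2.71 with FPKM plus 0.1 and by 2.78 with the trend removed. For Ep300 the excess was 0.54, 0.36 with the trend removed and 0.38 with the trend on deposited gene length. The counts of all genes higher and lower were 854 and 602 of 11889. They were 920 and 532 with the median set to 0, and 904 and 562 with TMM factors. At 2-fold they were 247 and 106, and with the interval wholly past 1.5-fold 381 and 140. Of 10948 genes, 374 and 316 were counted with FPKM plus 1, and 665 and 571 with FPKM plus 0.1. With at least 1 read in each library they were 1973 and 1595 of 15864. With at least 1000 reads they were 372 and 130 of 6037. Without overlapped genes they were 639 and 452 of 9110. With the trend removed they were 428 and 298 of 11214. The trend on deposited gene length gave 477 and 363. No paired analysis was possible because each condition has 1 library.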

Other observations

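Among the 100 further genes of the same machineries, 94 were tested. Of these, 1 lay at least 1.5-fold above the length and GC trend, where the share of genes tested was 3.82%. A further 3 lay at least 1.5-fold below it, where the share was 2.66%. Suv39h1, a methyltransferase of heterochromatin with a transcript of 3116 bases, went from 354 to 722 reads, a ratio of 2.07 (1.82 to 2.35), and lay 2.04-fold above the trend. Its paralogue Suv39h2 went the other way, with 153 and 115 reads, a ratio of 0.761 (0.592 to 0.976) and 0.662 times the trend. Ss18, a subunit of SWI/SNF complexes, had 1347 and 649 reads, a ratio of 0.488 (0.444 to 0.536). Of the 23 remodeller genes tested in this further list, 13 had a ratio above 1, and their median transcript length was 4642 bases. All 12 remodeller members had a ratio above 1, with a median transcript length of 8190 bases. Brpf3, a scaffold of acetyltransferase complexes, had 252 and 163 reads (0.655, 0.534 to 0.801). These genes have 1 library per condition and no replicate check.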
